A study of Mus musculus with 14 samples.

Results

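The genes described here encode myosin light chains and the proteins that bind or modify the myosin thick filament in striated muscle. They were chosen by gene symbol: Myl1, Myl2, Myl3, Myl4, Mylpf, Mylk2, Mybpc1, Mybpc2, Mybpc3 and Mybph, 10 genes in all, measured by 13 of the 55681 probes on the array. Of these, 9 genes, with 12 probes, passed the filter on dim probes and were tested among 14164 named genes. Mybpc3, the cardiac myosin-binding protein C, did not pass: its probe was well above background on 0 of the 14 arrays and is described only by that count.

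Gene expression was measured with 1 Agilent 1-colour microarray per sample, each labelled with Cy3 from 25 ng of total RNA. The muscles were the EDL (extensor digitorum longus), a fast muscle of the hind limb, and the soleus, a slow one. Ts1Cje mice model Down syndrome: distal chromosome 16 genes are present in an additional copy, through a translocation that also removed a small part of another chromosome, and the controls (WT) were disomic littermates on the C57BL/6 background. The groups were EDL of Ts1Cje (3 arrays), EDL of WT (3 arrays), soleus of Ts1Cje (4 arrays) and soleus of WT (4 arrays). Age, sex and the number of animals behind a sample are not given in the sources used here, so the p-values measure the spread between these samples. On the chromosome that carries the trisomic segment lie 0 of the 10 members.

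Depending on the array, 41.3% to 52.9% of probes stood well above background, 0 spots were saturated, and arrays of 1 group correlated at 0.979 to 0.988 across genes. All 6 genes of a fast muscle list and all 6 of a slow muscle list were well above background on every array. The summed linear level of the slow list was 29.2 to 244 in the EDL arrays and 2809 to 4196 in the soleus arrays, so the muscles stood apart as labelled. All 6 EDL arrays were on slide 1 together with 1 soleus array, Ts1Cje replicate 1, while slide 2 carried the other 7 soleus arrays. Levels below are log2 of the signal over the 75th percentile of the same array, and a level of 1 probe is compared only with the same probe on other arrays.

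A myosin head carries an essential and a regulatory light chain, which wrap around and stiffen the lever arm that swings during the power stroke. Fast and slow fibres use different genes for them. Myl1 (essential) and Mylpf (regulatory) serve fast fibres, while Myl3 (essential) and Myl2 (regulatory) serve slow fibres and the heart ventricle. Myl4 is an essential chain of the embryo and the heart atrium. Mylk2 is the skeletal muscle kinase that phosphorylates the regulatory chain. The myosin-binding proteins C lie in regular stripes along the thick filament, where they restrain the heads and touch actin, with slow (Mybpc1), fast (Mybpc2) and cardiac (Mybpc3) forms, and Mybph is a shorter relative.

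The light chains are paralogs of each other, as are the binding proteins, and Mybpc1 and Mybpc2 gave unlike results, so the probes were checked for shared sequence. Over the 13 probes, each 60 bases long, the longest run that a probe shared with a probe of another member, on either strand, was 7 to 9 bases. Probes were compared only with each other, not with transcripts. Binding of a probe to another member's RNA was therefore not tested. A second probe of Mybpc1 (mm9, chr10:87985807-87985866, minus strand) and the probe of Mybpc2 (mm9, chr7:51759105-51759164, minus strand) are shown, with the longest run that the pair shares, 6 bases, in capitals.
Mybpc1: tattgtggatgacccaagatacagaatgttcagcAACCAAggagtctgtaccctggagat
Mybpc2: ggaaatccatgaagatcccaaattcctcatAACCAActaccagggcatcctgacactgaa
The probe of Mybph covered 560 bases of the genome (chr1:136096999-136097558) and a second probe of Myl1 covered 4248 (chr1:66976853-66981100), more than their own length, while the other 11 each covered 60. Which exon a probe lies in was not looked up, since no annotation of mm9 was used here.

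The 250 bases before the annotated start are shown for a fast binding protein, a fast light chain and a slow light chain (RefSeq, GRCm38.p6), because members of the fast group were high together in 1 muscle and members of the slow group in the other. Capitals mark matches to the E-box CANNTG, the TEAD factor motif CATTCC and, in Myl3, a CArG box, counted on both strands. No marked matches overlap.
Mybpc2 (chr7:44524670-44524919, minus strand): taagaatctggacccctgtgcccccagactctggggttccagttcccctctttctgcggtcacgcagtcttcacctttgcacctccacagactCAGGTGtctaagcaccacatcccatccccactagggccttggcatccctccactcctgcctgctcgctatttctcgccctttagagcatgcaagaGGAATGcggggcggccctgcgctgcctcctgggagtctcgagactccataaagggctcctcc
Mylpf (chr7:127211358-127211607, plus strand): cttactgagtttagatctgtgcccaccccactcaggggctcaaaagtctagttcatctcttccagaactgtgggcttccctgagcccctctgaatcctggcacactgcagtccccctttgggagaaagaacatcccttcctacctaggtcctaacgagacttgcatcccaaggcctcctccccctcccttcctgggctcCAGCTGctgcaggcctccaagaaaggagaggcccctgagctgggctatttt
Myl3 (chr9:110763428-110763677, plus strand): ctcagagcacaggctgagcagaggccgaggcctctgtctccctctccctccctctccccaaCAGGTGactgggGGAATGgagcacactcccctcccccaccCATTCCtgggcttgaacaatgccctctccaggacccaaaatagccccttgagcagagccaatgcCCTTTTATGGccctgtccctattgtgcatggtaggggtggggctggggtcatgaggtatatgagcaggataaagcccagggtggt
Of the 9 members with a promoter entry, 8 held at least 1 E-box, against 66.2% of all 32851 promoters in the same window. The TEAD motif was in 4 of the 9 (Myl1, Mybph, Mybpc2 and Myl3), against 12.6% of all promoters. TATAAA was in 3 of the 9 (12.4% of all promoters), a MEF2 site, whose letters can overlap TATAAA, in 1 (Mybpc3, 2.92% of all) and a CArG box in 1 (Myl3, 1.47% of all). The 9 members had 10 promoter entries, since Myl2 had more than 1, and a member counted if any entry matched. The shares over all promoters are by entry. Only 1 entry of Myl2 held TATAAA. A match is a description of the letters in the window and shows no binding.

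The first question was how the members differ between the fast and the slow muscle. In each genotype 7 of the 9 members differed, in the same direction in both: Myl1, Mylpf, Mylk2, Mybpc2 and Mybph were higher in the EDL, and Myl2 and Myl3 were lower. The calls are limma tests with Benjamini-Hochberg adjustment over all genes, at an adjusted p under 0.05. In Ts1Cje, 30% of all genes were called (17.5% higher and 12.4% lower), and in WT 29.8% (20.1% higher and 9.76% lower). The median absolute difference of the members was 2.36 on the log2 scale in Ts1Cje and 2.22 in WT, beside 0.31 over all genes in each. The EDL and soleus arrays of a genotype did not overlap for 7 members, against 35.4% of all genes in Ts1Cje (20.4% with the EDL higher and 15% with it lower) and 38.9% in WT (25.8% and 13%). These are bulk samples, in which fewer fibres of a type and less RNA per fibre cannot be told apart.

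**Figure D1:**
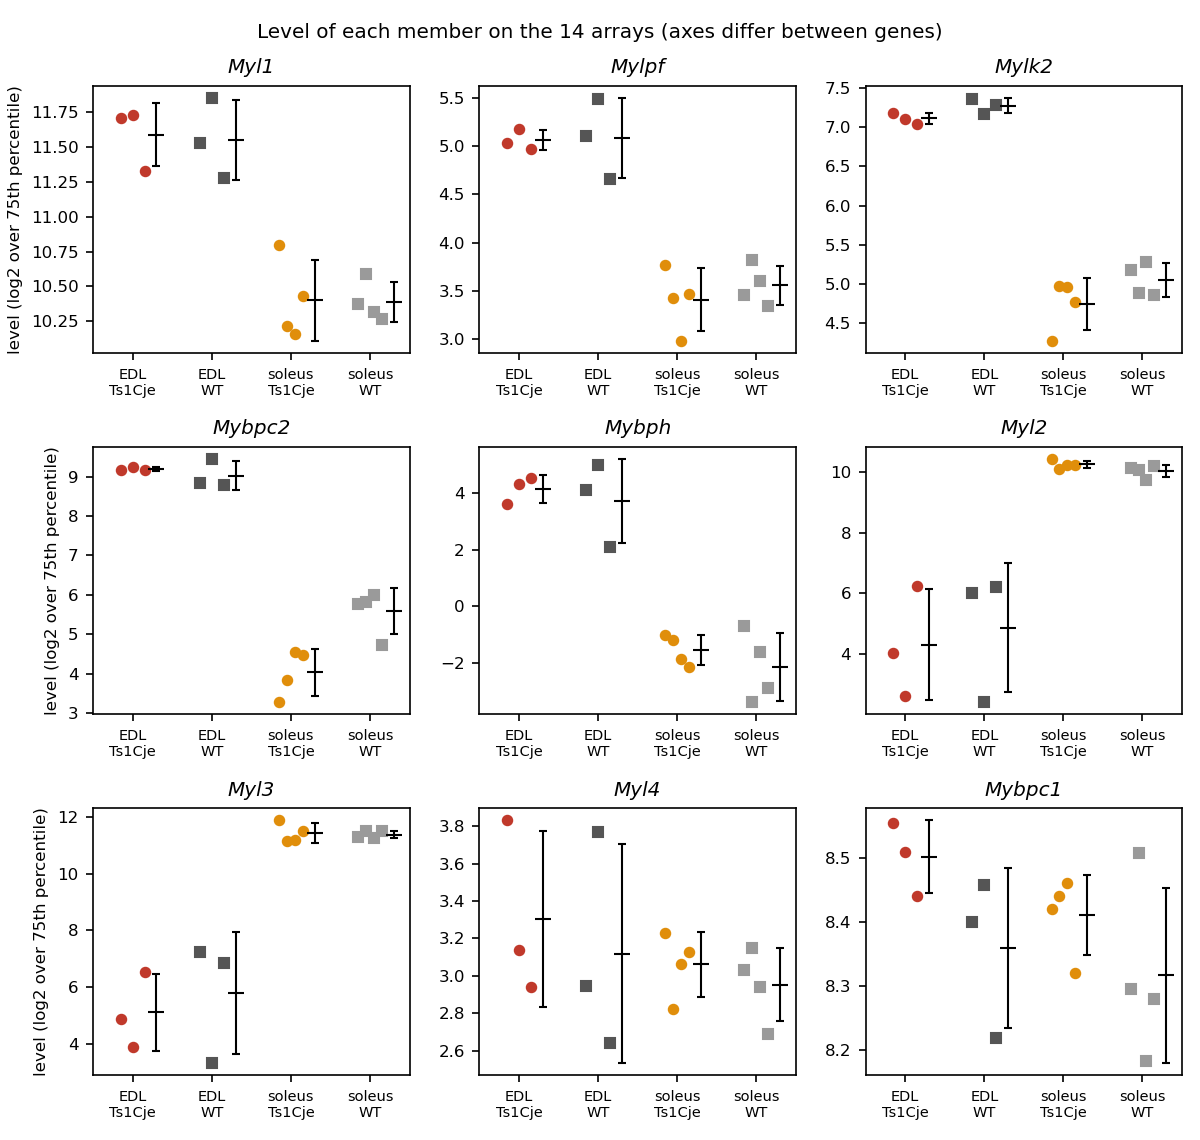
Level of each of the 9 tested members on every array (vertical axes, log2 over the 75th percentile of the array, with a different range for each gene), by group. Circles are Ts1Cje and squares are WT, and the bars beside them are the mean ± SD of 3 EDL or 4 soleus arrays. The EDL and soleus points do not overlap for 7 members and overlap for Myl4 and Mybpc1.

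Myl1, the fast essential light chain (probe at mm9 chr1:66970948-66971007, minus strand), had levels of 11.71, 11.73 and 11.33 in the EDL of Ts1Cje and 10.80, 10.21, 10.16 and 10.43 in the soleus of Ts1Cje. In WT its levels were 11.53, 11.85 and 11.28 in the EDL and 10.37, 10.59, 10.32 and 10.27 in the soleus. The EDL arrays were all above the soleus arrays in each genotype. Myl1 was 2.28-fold higher in the EDL of Ts1Cje (log2 1.19 ± 0.18 SE, limma adjusted p = 0.00032) and 2.24-fold higher in the EDL of WT (log2 1.16 ± 0.18 SE, limma adjusted p = 0.000398). The size depended on the probe: the second Myl1 probe gave 1.97 ± 0.17 (SE) in Ts1Cje and 1.83 ± 0.17 in WT.

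Mylpf, the fast regulatory light chain (chr7:134355191-134355250, plus strand), had levels of 5.04, 5.18 and 4.97 in the EDL of Ts1Cje and 3.77, 3.42, 2.98 and 3.47 in the soleus of Ts1Cje. In WT its levels were 5.10, 5.49 and 4.66 in the EDL and 3.46, 3.82, 3.6 and 3.35 in the soleus. Every EDL array was higher than every soleus array. The log2 differences were 1.65 ± 0.20 (SE, limma adjusted p = 7.74e-05) in Ts1Cje and 1.53 ± 0.20 (limma adjusted p = 0.000154) in WT, or 3.14-fold and 2.88-fold. A second, dim Mylpf probe, well above background on 2 of 4 soleus arrays of Ts1Cje and on every array of the other groups, gave 0.75 ± 0.20 in Ts1Cje and 0.57 ± 0.20 in WT.

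Mylk2, the kinase of the regulatory light chain (chr2:152748725-152748784, plus strand), was high on every EDL array and lower on every soleus array. Its levels were 7.18, 7.10 and 7.04 in the EDL of Ts1Cje and 4.28, 4.97, 4.97 and 4.77 in the soleus of Ts1Cje. In WT they were 7.36, 7.17 and 7.28 in the EDL and 5.18, 4.88, 5.29 and 4.86 in the soleus. It was 5.14-fold higher in the EDL of Ts1Cje (log2 2.36 ± 0.16 SE, limma adjusted p = 8.21e-07) and 4.65-fold higher in the EDL of WT (log2 2.22 ± 0.16 SE, limma adjusted p = 2.09e-06). The genes with the most similar pattern over the 14 arrays were Phka1, a subunit of the phosphorylase kinase of muscle (r = 0.994), and Pfkm, muscle phosphofructokinase (r = 0.992). These correlations are descriptions, and their 14 points share the split into 2 muscles.

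Mybpc2, the fast myosin-binding protein C, had levels of 9.16, 9.25 and 9.16 in the EDL of Ts1Cje and 3.29, 3.85, 4.55 and 4.48 in the soleus of Ts1Cje. In WT they were 8.83, 9.44 and 8.79 in the EDL and 5.78, 5.83, 6.01 and 4.72 in the soleus. The lowest EDL array lay above the highest soleus array in both genotypes. The difference was 35.4-fold in Ts1Cje (log2 5.15 ± 0.34 SE, limma adjusted p = 5.23e-07) and 10.8-fold in WT (log2 3.43 ± 0.34 SE, limma adjusted p = 1.58e-05).

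Mybph, the shorter relative of the C proteins, was near background in the soleus. Its levels were 3.61, 4.33 and 4.54 in the EDL of Ts1Cje and -1.0, -1.19, -1.86 and -2.13 in the soleus of Ts1Cje. In WT they were 4.10, 4.98 and 2.09 in the EDL and -0.71, -3.38, -1.63 and -2.88 in the soleus. EDL replicate 3 of WT was the lowest EDL array and still lay above every soleus array. The log2 differences were 5.71 ± 0.68 (SE, limma adjusted p = 6.03e-05) in Ts1Cje and 5.87 ± 0.68 (limma adjusted p = 5.18e-05) in WT. The probe was well above background on 4 of 4 soleus arrays of Ts1Cje and 2 of 4 of WT, and the size depended on the background correction: with normexp it was 4.26 in Ts1Cje and 4.02 in WT. In WT it was 5.25 without EDL replicate 2 and 6.69 without EDL replicate 3.

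The slow light chains ran the other way. Myl2, the slow regulatory chain (chr5:122556732-122556791, plus strand), had levels of 4.05, 2.63 and 6.26 in the EDL of Ts1Cje and 10.42, 10.11, 10.22 and 10.24 in the soleus of Ts1Cje. In WT they were 6.00, 2.43 and 6.20 in the EDL and 10.13, 10.06, 9.73 and 10.20 in the soleus. It was 61.3-fold lower in the EDL of Ts1Cje (log2 -5.94 ± 0.85 SE, limma adjusted p = 0.000238) and 35.6-fold lower in the EDL of WT (log2 -5.15 ± 0.85 SE, limma adjusted p = 0.000723). The size rested on single EDL arrays: without replicate 2 it was -5.10 in Ts1Cje and -3.93 in WT, and without replicate 3 it was -6.91 in Ts1Cje and -5.82 in WT.

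Myl3, the slow essential chain (chr9:110672238-110672297, plus strand), had levels of 4.88, 3.88 and 6.54 in the EDL of Ts1Cje and 11.90, 11.17, 11.18 and 11.50 in the soleus of Ts1Cje. In WT they were 7.24, 3.32 and 6.85 in the EDL and 11.28, 11.50, 11.26 and 11.51 in the soleus. All EDL arrays lay below all soleus arrays. Myl3 was 80.9-fold lower in the EDL of Ts1Cje (log2 -6.34 ± 0.78 SE, limma adjusted p = 7.61e-05) and 48.1-fold lower in the EDL of WT (log2 -5.59 ± 0.78 SE, limma adjusted p = 0.000213). Without EDL replicate 2 the difference was -5.73 in Ts1Cje and -4.35 in WT, without EDL Ts1Cje replicate 3 it was -7.06, and without EDL WT replicate 1 it was -6.31.

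The 2 remaining members did not differ beyond their spread. Myl4, the embryonic and atrial chain (chr11:104448441-104448500, plus strand), had levels between 2.94 and 3.83 in the EDL of Ts1Cje and between 2.82 and 3.23 in the soleus of Ts1Cje. In WT its levels were between 2.64 and 3.77 in the EDL and between 2.69 and 3.15 in the soleus. The difference was 0.24 (95% interval -0.31 to 0.79, limma adjusted p = 0.505) in Ts1Cje and 0.17 (-0.39 to 0.72, limma adjusted p = 0.658) in WT.

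Mybpc1, the slow myosin-binding protein C (chr10:87981078-87981137, minus strand), did not follow the slow light chains. Its levels were 8.56, 8.51 and 8.44 in the EDL of Ts1Cje and 8.42, 8.44, 8.46 and 8.32 in the soleus of Ts1Cje. In WT they were 8.40, 8.46 and 8.22 in the EDL and 8.30, 8.51, 8.18 and 8.28 in the soleus. The groups overlapped, with differences of 0.09 (95% interval -0.12 to 0.31, limma adjusted p = 0.517) in Ts1Cje and 0.04 (-0.17 to 0.26, limma adjusted p = 0.779) in WT. The second Mybpc1 probe gave -0.12 ± 0.13 (SE) in Ts1Cje and -0.03 ± 0.13 in WT. With quantile normalization between arrays the direction turned and Mybpc1 was called lower in the EDL, with differences of -0.34 in Ts1Cje (limma adjusted p = 0.0152) and -0.34 in WT (limma adjusted p = 0.0172).

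**Figure D2:**
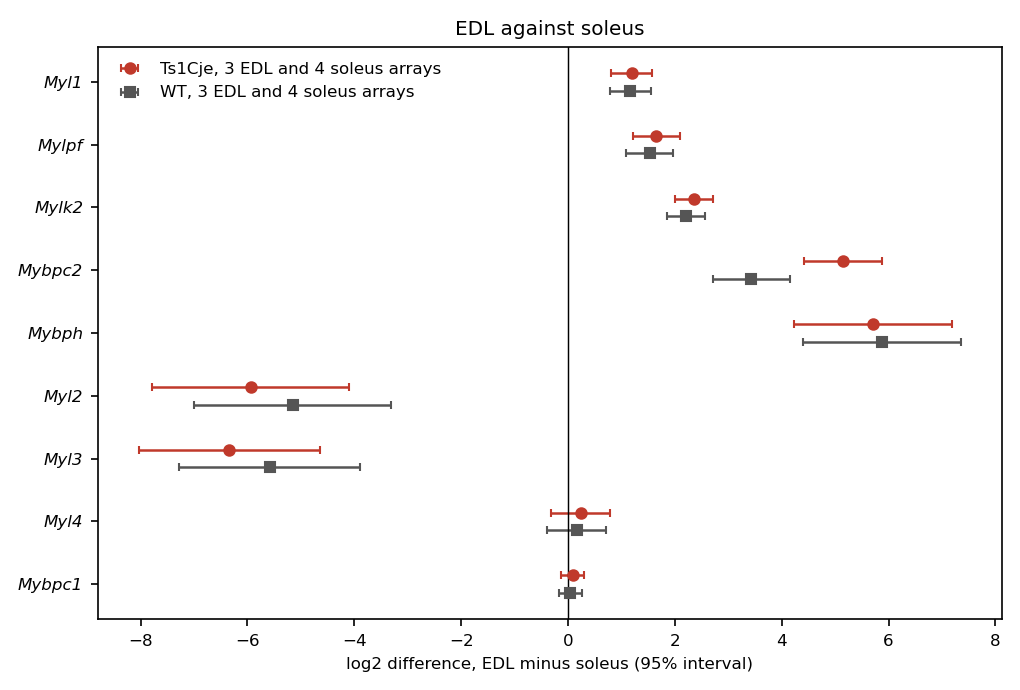
Log2 difference of EDL minus soleus (horizontal axis) for the 9 tested members, with 95% intervals from the limma fit of all 14 arrays. Circles are Ts1Cje and squares are WT, with 3 EDL and 4 soleus arrays each. The intervals of Myl1, Mylpf, Mylk2, Mybpc2 and Mybph lie above 0, those of Myl2 and Myl3 lie below 0, and those of Myl4 and Mybpc1 include 0.

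Slide and muscle were nearly the same split, and only soleus Ts1Cje replicate 1 shared a slide with the EDL arrays. With the slide as a block, 7 members were called in Ts1Cje and 4 in WT, where Myl1 (0.63, limma adjusted p = 0.166), Mylpf (1.05, adjusted p = 0.0785) and Myl2 (-5.39, adjusted p = 0.0558) were lost and Mylk2 stood at 2.84, Mybpc2 at 4.44, Mybph at 5.15 and Myl3 at -6.20. Within slide 1, where that array stood alone for the soleus and was assumed to vary like the other groups, 3 members were called in Ts1Cje: Mylk2 (2.83), Mybpc2 (5.90) and Mybph (5.16). The 4 lost there were Myl1 (0.79, adjusted p = 0.13), Mylpf (1.29, adjusted p = 0.057), Myl2 (-6.11, adjusted p = 0.0896) and Myl3 (-6.80, adjusted p = 0.0568), all in the same direction as before. Among markers of other cell types, the adipocyte list (5 of 6 genes kept) had summed levels of 5.22 to 12.9 in the EDL and 34.2 to 94.8 in the soleus of Ts1Cje, and 5.89 to 48.5 in the EDL and 16.9 to 78.7 in the soleus of WT. The macrophage list (7 of 7 genes kept) had summed levels of 16.3 to 19.49 in the EDL and 19.52 to 26.8 in the soleus of Ts1Cje, and 12.8 to 15.4 in the EDL and 17.9 to 20.6 in the soleus of WT, without overlap in either genotype. The heart muscle list (3 of 6 genes kept, with Ryr2 never above background) overlapped, at 2.58 to 7.38 in the EDL and 4.27 to 6.97 in the soleus of Ts1Cje, and 1.62 to 5.03 in the EDL and 3.73 to 6.50 in the soleus of WT. The part of these lists in the members' differences was not tested.

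The slow light chains varied far more between EDL arrays than between soleus arrays. The SD of Myl2 was 1.83 in the EDL of Ts1Cje and 2.12 in the EDL of WT, against 0.13 in the soleus of Ts1Cje and 0.21 in the soleus of WT. The SD of Myl3 was 1.35 and 2.16 in the EDL of Ts1Cje and WT and 0.34 and 0.13 in the soleus of Ts1Cje and WT. In each genotype, EDL replicate 2 had the lowest levels of both chains. Myl2 and Myl3 moved together over the 6 EDL arrays (r = 0.981), a description whose points come from the same 6 RNA samples.

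Other slow fibre genes followed them across these arrays. Myh7, the slow myosin heavy chain, had levels of 3.07, 2.37 and 5.65 in the EDL of Ts1Cje and 6.44, -0.02 and 5.74 in the EDL of WT. Tnnt1, the slow troponin T, had levels of 4.48, 3.96 and 6.18 in the EDL of Ts1Cje and 6.84, 3.92 and 6.09 in the EDL of WT. The low arrays were therefore the same for all of them: EDL replicate 2 of both genotypes and replicate 1 of Ts1Cje. With the 4 group means taken out over all 14 arrays, Myl3 was most like Myh7 (r = 0.982) and Tnnt1 (r = 0.976). The non-members most like Myl2 were Tnnc1, the slow and cardiac troponin C (r = 0.964), and Tnnt1 (r = 0.959). Myl2 correlated more closely with Myl3 itself (r = 0.9735).

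**Figure D3:**
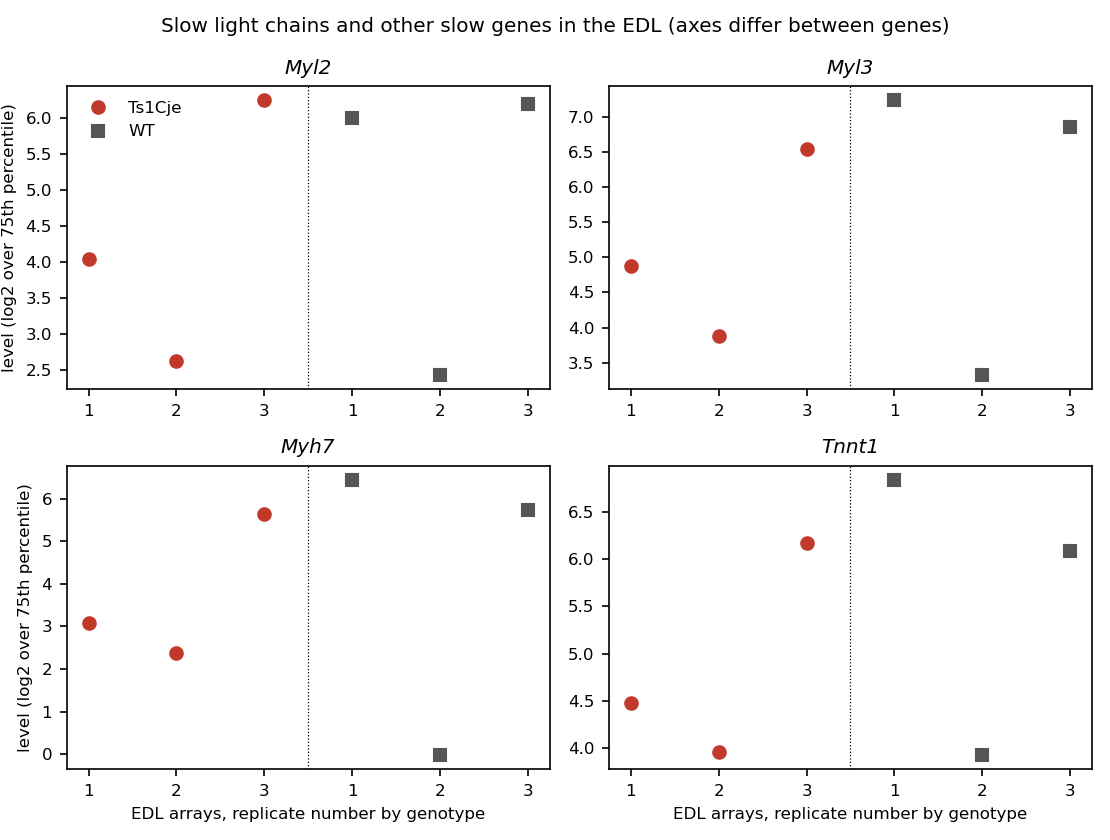
Levels of Myl2, Myl3, Myh7 and Tnnt1 (vertical axes, log2 over the 75th percentile, with a different range for each gene) on the 3 EDL arrays of Ts1Cje (circles, left) and the 3 of WT (squares, right), by replicate number. Replicate 2 is lowest in both genotypes for all 4 genes, and replicate 1 of Ts1Cje lies well below replicate 1 of WT.

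The second question was whether the members' levels in Ts1Cje differ from those in WT. For the EDL, 0 of the 9 members were called, beside 0.00706% of all genes (1 gene, which is not a member), and 0 members had an unadjusted p under 0.05, beside 408 of all genes. The median difference of the members was 0.04 on the log2 scale, beside 0.00 over all genes. Groups of Ts1Cje and WT arrays overlapped for all 9 members, where 5.6% of all genes did not overlap (2.82% with Ts1Cje higher and 2.77% with it lower). The fast members stood close to 0 with intervals that include modest changes: Myl1 at 0.04 (95% interval -0.38 to 0.45), Mylpf at -0.02 (-0.50 to 0.45), Mylk2 at -0.16 (-0.54 to 0.22) and Mybpc2 at 0.17 (-0.60 to 0.95).

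For the slow light chains the EDL comparison says little, since the spread just described is large. Myl2 stood at -0.57 (95% interval -2.54 to 1.41) and Myl3 at -0.70 (-2.51 to 1.11), each with a limma adjusted p of 1. Leaving out EDL Ts1Cje replicate 2 or EDL WT replicate 3 turned the sign of Myl2 (0.27 and 0.10), and leaving out EDL WT replicate 2 gave -1.79. Myl4 stood at 0.18 (-0.41 to 0.78), Mybpc1 at 0.14 (-0.09 to 0.37) and Mybph at 0.44 (-1.14 to 2.02), and without EDL WT replicate 3, its lowest EDL array, Mybph stood at -0.38. In the EDL the macrophage list (16.3 to 19.5 in Ts1Cje and 12.8 to 15.4 in WT) did not overlap between genotypes. The vascular smooth muscle list (5 of 6 genes kept) was separated only narrowly, at 113.64 to 138 in Ts1Cje and 104 to 113.28 in WT. Within that list Tagln, its largest term, overlapped, at log2 levels of 5.88 to 5.98 in Ts1Cje and 5.63 to 5.94 in WT. Smtn, Myh11 and Cnn1 overlapped too, while Acta2 did not.

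In the soleus 0 of the 9 members were called, beside 0.247% of all genes (35 genes, of which 25, or 0.177%, were higher and 10, or 0.0706%, were lower). An unadjusted p under 0.05 was found for 1 member, Mybpc2, and for 1930 of all genes. The median difference of the members was 0.05, beside 0.07 over all genes.

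Mybpc2 had levels of 3.29, 3.85, 4.55 and 4.48 in the soleus of Ts1Cje and 5.78, 5.83, 6.01 and 4.72 in the soleus of WT. The groups did not overlap, although WT replicate 4 came close to the 2 highest Ts1Cje arrays. Of all genes, 8.39% did not overlap, 6.11% with Ts1Cje higher and 2.29% with it lower. The level stood 2.91-fold lower in Ts1Cje (log2 -1.54 ± 0.31 SE, 95% interval -2.21 to -0.87) and missed the threshold, with an unadjusted limma p of 0.000274 (rank 44 among 14164 genes) and an adjusted p of 0.0836. Without soleus WT replicate 4 the difference was -1.83 and was called (limma adjusted p = 0.0301). With the slide as a block it was -1.29 (adjusted p = 0.14), and within slide 2, which leaves out soleus Ts1Cje replicate 1, also -1.29 (adjusted p = 0.239).

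Of all 14164 genes, those closest to Mybpc2 in pattern over the 14 arrays were Actn3, the alpha-actinin of fast fibre Z-discs (r = 0.997), and Pvalb, parvalbumin, a calcium buffer of fast fibres (r = 0.992). With group means taken out, Actn3 was again the closest (r = 0.955). Actn3 had levels of 3.54, 3.93, 4.56 and 4.25 in the soleus of Ts1Cje and 6.39, 6.10, 6.45 and 5.13 in the soleus of WT, and it fell by 1.95 on the log2 scale (limma adjusted p = 0.0131). Pvalb had levels of 6.42, 6.59, 6.93 and 6.72 in the soleus of Ts1Cje and 8.58, 8.57, 8.93 and 8.0 in the soleus of WT, and it fell by 1.86 (limma adjusted p = 0.00317). For both genes all Ts1Cje arrays lay below all WT arrays, and WT replicate 4 was the lowest WT array, as for Mybpc2. Actn3 and Pvalb were picked for their likeness to Mybpc2 on these same 14 arrays, whose points share the split into 2 muscles. Their likeness to Mybpc2 in the soleus is in part built into that choice and was not tested.

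Markers that moved with this difference are given with it. The fast muscle list, which holds Actn3 and Pvalb among its 6 genes, had summed levels of 3273 to 3984 in the soleus of Ts1Cje and 4119 to 5039 in the soleus of WT, without overlap. Its members did not move alike: Myh4 (-4.12), Actn3 and Pvalb were called lower, while Tnni2 stood at -0.11 (limma adjusted p = 0.745) and Tnnt3 at 0.03 (limma adjusted p = 0.93). These calls depended on the slide setting, as for Mybpc2. Within slide 2 alone, 1 of 14164 genes was called higher and 0 lower, so Myh4, Actn3 and Pvalb were not called there. The red blood cell list (5 of 7 genes kept, with Ahsp never above background) had summed levels of 133 to 159 in the soleus of Ts1Cje and 92.1 to 108 in the soleus of WT, also without overlap. Most of this sum was Hba-a1, whose log2 levels were 6.68 to 7.01 in Ts1Cje and 6.13 to 6.36 in WT. Alas2 did not overlap either, while Hbb-b1, Hbb-b2 and Slc4a1 overlapped between the genotypes. The slow muscle list overlapped, at 3240 to 4196 in Ts1Cje and 2809 to 3542 in WT. The part of these lists in the Mybpc2 difference was not tested.

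**Figure D4:**
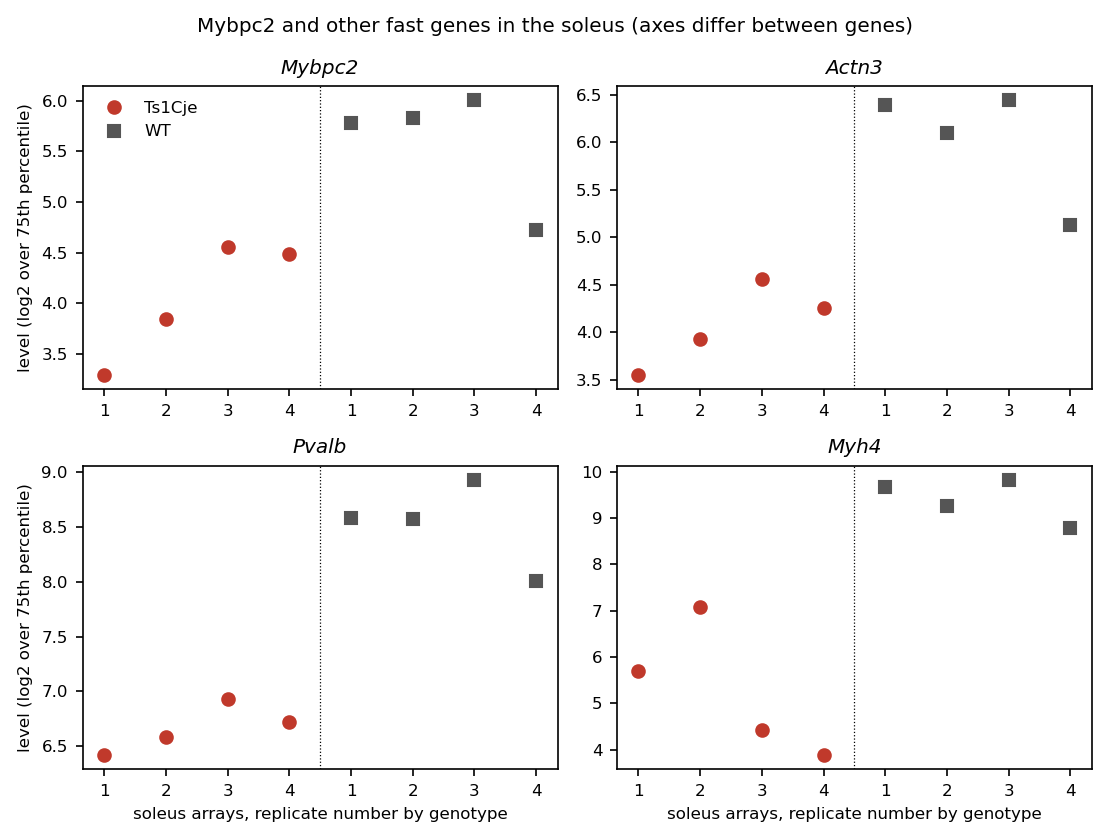
Levels of Mybpc2, Actn3, Pvalb and Myh4 (vertical axes, log2 over the 75th percentile, with a different range for each gene) on the 4 soleus arrays of Ts1Cje (circles, left) and the 4 of WT (squares, right), by replicate number. All Ts1Cje arrays lie below all WT arrays for each gene, and WT replicate 4 is the lowest WT array for each. Actn3 and Pvalb were picked for their likeness to Mybpc2 over arrays that include these.

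For the other fast members the soleus arrays of Ts1Cje and WT overlapped on the probes tested. Myl1 stood at 0.01 (95% interval -0.35 to 0.37), Mylpf at -0.15 (-0.56 to 0.26) and Mylk2 at -0.31 (-0.64 to 0.02, limma adjusted p = 0.391). On the second, dim Mylpf probe the groups did not overlap, at -3.13 to -2.88 in Ts1Cje (2 of 4 arrays well above background) and -2.77 to -2.21 in WT, a difference of -0.50 ± 0.18 (SE). Mylk2 was lowest on soleus Ts1Cje replicate 1, at 4.28, and stood at -0.15 within slide 2. Mybph stood at 0.60 (-0.77 to 1.97), with 2 of the 4 WT arrays not well above background.

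Among the slow members in the soleus, Myl2 stood at 0.22 and Myl3 at 0.05. Their intervals (-1.49 to 1.93 and -1.52 to 1.62) are wide because the fit shares 1 spread over all groups and these chains vary in the EDL. Fitted to the soleus arrays alone, Myl2 was not called either (0.22, limma adjusted p = 0.457). Mybpc1 stood at 0.09 (-0.11 to 0.29) and Myl4 at 0.11 (-0.40 to 0.62).

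**Figure D5:**
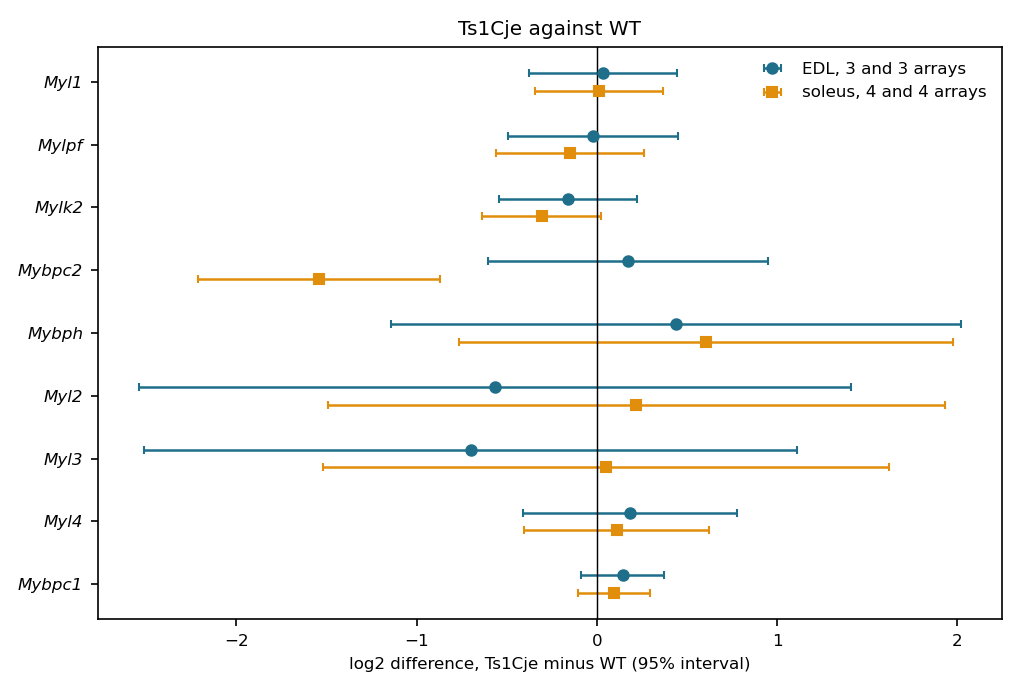
Log2 difference of Ts1Cje minus WT (horizontal axis) for the 9 tested members, with 95% intervals from the limma fit of all 14 arrays. Circles are the EDL (3 and 3 arrays) and squares are the soleus (4 and 4 arrays). The interval of Mybpc2 in the soleus lies below 0, and the other 17 intervals include 0.

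The third comparison asked whether the genotype effect differs between the muscles. By the interaction term, 0 of the 9 members and 0% of all genes were called in limma, while 1 member and 455 genes had an unadjusted p under 0.05. That member was Mybpc2, whose Ts1Cje effect was 0.17 in the EDL and -1.54 in the soleus, a difference of 1.71 ± 0.47 (SE). Its unadjusted p in the limma fit over all genes was 0.00326 and its limma adjusted p was 0.988. The same contrast is the gap between its muscle differences of 5.15 in Ts1Cje and 3.43 in WT, so the larger muscle difference of Mybpc2 in Ts1Cje is not shown to differ between genotypes after adjustment. For the other 8 members the differences lay between -0.79 (Myl2) and 0.14 (Mylk2), with adjusted p of at least 0.988.

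The members sit on heavy chains and beside other parts of the sarcomere, which gives their differences a setting. Of 9 sarcomeric myosin heavy chain genes, 2 were higher and 4 lower in the EDL in each genotype. Myh7b, a slow heavy chain, was lower, at -6.45 in Ts1Cje and -5.54 in WT (limma adjusted p = 3.19e-06 and 1.43e-05), and Myh7 likewise, at -6.79 in Ts1Cje and -6.25 in WT (adjusted p = 0.00102 and 0.00189). Myh2 was lower too, at -2.08 in Ts1Cje and -2.28 in WT (limma adjusted p = 0.00416 and 0.00235). Myh8, the perinatal heavy chain, was higher by 1.0 in Ts1Cje and 0.75 in WT (adjusted p = 0.000708 and 0.00475). Its probe was bright, with mean levels of 12.14 and 12.12 in the EDL of Ts1Cje and WT and 11.14 and 11.37 in the soleus. Binding of that probe to RNA of other heavy chains was not tested. Between genotypes, 0 of the 9 were called in the EDL, and in the soleus 1 fell and 0 rose. That gene was Myh4, the fastest heavy chain, with levels of 5.69, 7.07, 4.42 and 3.88 in the soleus of Ts1Cje and 9.67, 9.26, 9.83 and 8.79 in the soleus of WT (log2 -4.12 ± 0.53 SE, limma adjusted p = 0.00642). Within slide 2 alone, where 0 of all genes were called lower in the soleus, Myh4 was not called.

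Of 9 thin filament regulators, 4 were higher and 4 lower in the EDL in each genotype. The slow forms Tnni1 (-6.51 in Ts1Cje and -5.36 in WT) and Tnnc1 (-6.50 and -5.48) were lower in the EDL, and fast Tnnt3 was higher by 1.04 in Ts1Cje and 1.08 in WT (limma adjusted p of at most 4.08e-05 for each). Of 13 measured genes of the M-band and of thick filament assembly, 6 were higher and 2 lower in the EDL of Ts1Cje, and 5 were higher and 2 lower in the EDL of WT. Among them Myom2, a myomesin of fast fibres, was higher by 1.78 in Ts1Cje and 1.87 in WT, and Unc45b, a myosin chaperone, by 0.90 and 1.0. In both lists 0 genes were called between genotypes in either muscle.

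Of 15 other measured light chains, kinases and phosphatase subunits, 3 were higher and 4 lower in the EDL of Ts1Cje, and 4 were higher and 2 lower in the EDL of WT. Myl6b, an essential chain found in slow skeletal muscle and in non-muscle cells, was lower, at -4.49, in the EDL of Ts1Cje (limma adjusted p = 7.16e-07) and at -3.42 in the EDL of WT (limma adjusted p = 8.23e-06). Mylk4, a further kinase of the family, was higher by 3.79 in Ts1Cje and 2.46 in WT (adjusted p = 7.32e-05 and 0.00176), and Calm3, a calmodulin gene, was higher by 1.1 in Ts1Cje and 1.06 in WT (adjusted p = 1.69e-05 and 2.74e-05). Between genotypes 0 of the 15 were called. Myl6b stood at 1.04 ± 0.28 (SE, limma adjusted p = 0.227) in the soleus and Myl6, the smooth muscle and non-muscle chain, at 0.51 ± 0.12 (adjusted p = 0.183).

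Of 12 measured genes that denervated or developing muscle is known to express, 4 were higher and 4 lower in the EDL of Ts1Cje, and 3 were higher and 4 lower in the EDL of WT. Among the lower ones were Sln, which encodes sarcolipin, a regulator of the calcium pump (-6.31 in Ts1Cje and -4.65 in WT), and Myh3, the embryonic heavy chain (-2.22 in Ts1Cje and -1.67 in WT), while the embryonic light chain Myl4 was not called in either genotype. Between genotypes 0 of the 12 were called in the EDL, and 1 rose and 0 fell in the soleus. It was Runx1, a transcription factor gene on chromosome 16, the chromosome that carries the trisomic segment. Runx1 rose by 1.06 ± 0.17 (SE, limma adjusted p = 0.0219) in the soleus of Ts1Cje. In the EDL it also stood higher in Ts1Cje, by 0.72 ± 0.19 (SE, limma adjusted p = 0.919), and was not called. The effect in the EDL minus that in the soleus was -0.34 ± 0.26 (SE, limma adjusted p = 0.988). The mean level of Runx1 was low, at -1.59 in the soleus of Ts1Cje and -2.65 in the soleus of WT. The probe was well above background on 4 of 4 soleus arrays of Ts1Cje and 3 of 4 of WT.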

How the data were processed

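The authors deposited probe intensities as scanner files. The software was Agilent Feature Extraction: the file headers give 11.5.1.1, with probe positions of mm9, while the submitters' processing notes give 9.1. The authors' deposited table of log2 values, scaled to each array's 75th percentile, correlated with the recomputed values at 0.9999 or more and was an alternative. Here, spots of 1 probe were averaged and log2 of the processed intensity minus the array's log2 75th percentile was taken, with no pseudocount. A probe was kept where all arrays of 1 or more groups had it well above background (18509 named probes, 14164 genes), and a gene was its kept probe of highest mean. Of 33822 probes with a symbol, 31940 were matched through RefSeq, and 2152 symbols were updated.

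limma 3.58.1 in R 4.3.3 fitted 1 mean per group to all 14 arrays (10 residual and 2.805 prior degrees of freedom). The two-sided tests used the Benjamini-Hochberg procedure over all genes, with a threshold of 0.05, and were checked on simulated data. The number of arrays limits the precision. The normexp alternative used the median spot intensity, since the files hold no mean. The main fit used no pairing, and the labels do not say that a replicate number marks a pair. Deviations from the group means correlated over 0.1 for every same-numbered pair of arrays between genotypes in the EDL and between muscles in WT. This did not hold in the soleus or between muscles in Ts1Cje. The replicate block, an alternative, was nevertheless run for every comparison. Named genes were members and up to 4 called genes of each list (otherwise the 2 of smallest p). The 2 non-member genes most like a member were added. Of the list and likeness genes, those that bear on the text are printed. The members and lists were chosen with earlier results of these data known.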

Additional observations from a re-analysis of the deposited data

How the results depend on the processing

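Alternative settings were run for each member and comparison they could give a value for: 1 slide alone only where it held both sides, the arrays of a comparison's own groups not for the difference between effects, each left-out array only where a comparison used it, and the stricter filter not for Mybph. Direction and side of the threshold were unchanged for 148 of 161 values for the genotype in the EDL, 167 of 179 in the soleus, 186 of 215 for the difference between the muscles' genotype effects, 162 of 170 for EDL minus soleus in Ts1Cje and 151 of 161 in WT. The count of members called was 4 in WT for EDL minus soleus with the slide as a block and 3 in Ts1Cje within slide 1, and for the genotype in the soleus it ranged over 0 to 1 when an array was left out (Mybpc2, -1.83 to -1.29). The replicate block changed no member's call and left 0, 0 and 0 members called in the genotype comparisons and their difference and 7 and 7 between muscles, with an adjusted p of 0.206 for Mybpc2 in the soleus. Quantile normalization and the fit without a filter each added a call between muscles (Mybpc1, and Mybpc3, which was not well above background), and a stricter filter removed Mybph. Counts over all genes ranged over 0 to 3 in the EDL, 1 to 45 in the soleus, 959 to 4713 between muscles in Ts1Cje and 1368 to 4593 in WT.

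Signs that turned were of values near 0 or of wide spread. With normexp, the difference between genotype effects was -0.030 for Myl1, -0.021 for Mybpc1 and 0.24 for Mybph, and EDL minus soleus of Mybpc1 was -0.11 in Ts1Cje and -0.087 in WT. With quantile normalization, the genotype difference of Myl1 was 0 (EDL) and -0.004679 (soleus), the difference between effects of Mybpc1 was -0.001414, and EDL minus soleus was -0.34 in Ts1Cje and -0.34 in WT for Mybpc1 and -0.021 in WT for Myl4. With the mean of kept probes, Myl1 was -0.000671 in the soleus, and Mybpc1 was -0.021 for the difference between effects and -0.016 between muscles in Ts1Cje. With array weights, Mylpf was 0.011 in the EDL and Myl1 was -0.018 in the soleus. With the slide as a block, Myl1 was -0.12 and Myl3 -0.10 in the soleus (-0.12 and -0.10 also within slide 2), the differences between effects were -0.012 for Mylk2 and 0.014 for Mybph, and Myl4 was -0.060 between muscles in WT. Leaving out 1 array gave these ranges: genotype in the EDL, Myl1 -0.10 to 0.18, Myl2 -1.79 to 0.27, Myl3 -1.94 to 0.018, Myl4 -0.080 to 0.51, Mylpf -0.23 to 0.18 and Mybph -0.38 to 1.07. In the soleus they were -0.12 to 0.092 for Myl1 and -0.10 to 0.14 for Myl3. For the difference between effects they were -0.11 to 0.17 for Myl1, -2.01 to 0.056 for Myl2, -0.19 to 0.40 for Myl4, -0.087 to 0.33 for Mylpf, -0.012 to 0.22 for Mylk2, -0.021 to 0.099 for Mybpc1 and -0.99 to 0.46 for Mybph. Between muscles they were -0.024 to 0.42 in Ts1Cje and -0.16 to 0.40 in WT for Myl4, and -0.0073 to 0.11 in WT for Mybpc1. The cause of these changes was not tested. Signal over background limits Mybph in the soleus and the second Mylpf probe.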
